A study of Rattus norvegicus with 64 samples.

Results

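T-cell identity and signalling genes were followed in rat whole blood across 5 treatment groups. The genes were 34 transcripts named by symbol, with earlier results of these data known, among the 26405 genes that the deposited files listed in any rat. They were matched by the symbol of each row whatever its case. Of these, 33 were listed in all files and all 33 passed the filter on low counts in every comparison, while Themis was not analysed here. Blood was drawn by cardiac puncture from single, not pooled, male Sprague-Dawley rats of 85 to 90 days, 3 h after the last of 4 injections given 2 h apart. The groups were saline at 22.5 °C (6 rats, 4 kept), saline at 16 °C (5 rats), amphetamine (AMPH) at 16 °C, labelled normothermic (15 rats, 13 kept), AMPH at 22.5 °C, labelled hyperthermic (22 rats), and saline at 39 °C, labelled environmentally-induced hyperthermia (EIH; 16 rats, 15 kept). All groups received injections. The question the design poses for these genes is how far AMPH with hyperthermia, AMPH without it, and hyperthermia without AMPH were each accompanied by a different level of T-cell transcripts in the circulation. In whole blood, fewer circulating cells of a type and less RNA per cell cannot be told apart.

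T lymphocytes read antigen through a surface receptor whose CD3 chains (Cd3d, Cd3e, Cd3g) and zeta chain (Cd247) carry the signal inwards, with CD4 or CD8 as coreceptor. The kinase Lck phosphorylates these chains, Zap70 docks on them and phosphorylates the adaptor Lat, and from Lat the signal reaches Ras through Rasgrp1 and NF-kappa B through protein kinase C theta (Prkcq). Naive T cells circulate between blood and lymph nodes with the help of Ccr7 and Il7r under the transcription factors Tcf7 and Lef1, whereas effector cells lose these and gain granzymes and chemokines. Stress hormones are known to redistribute lymphocytes between blood, marrow and lymphoid organs.

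Because most of these genes varied together, the start regions of a receptor chain (Cd3e), a kinase (Lck) and a naive-cell factor (Lef1) are shown. They are RefSeq promoter windows of 300 bases on build GRCr8, not the rn5 build to which the reads were aligned, and 26 of the member symbols had a window. Capitals mark GGAAGT, the core bound by ETS factors such as Ets1, or the longer CAGGAAGT that contains it, on either strand (ACTTCC and ACTTCCTG in the printed strand). Cd3e was at chr8:54211721-54212020, minus strand, Lck had windows at chr5:147201218-147201517 and chr5:147183601-147183900, both minus strand, and Lef1 was at chr2:222340463-222340762, plus strand.
Cd3e: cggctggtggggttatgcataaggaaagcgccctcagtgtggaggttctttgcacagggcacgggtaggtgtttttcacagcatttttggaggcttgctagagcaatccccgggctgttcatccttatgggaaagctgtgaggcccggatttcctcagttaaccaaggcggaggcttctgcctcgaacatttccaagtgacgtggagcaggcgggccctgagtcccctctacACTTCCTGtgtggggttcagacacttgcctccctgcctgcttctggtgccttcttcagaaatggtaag
Lck, first window: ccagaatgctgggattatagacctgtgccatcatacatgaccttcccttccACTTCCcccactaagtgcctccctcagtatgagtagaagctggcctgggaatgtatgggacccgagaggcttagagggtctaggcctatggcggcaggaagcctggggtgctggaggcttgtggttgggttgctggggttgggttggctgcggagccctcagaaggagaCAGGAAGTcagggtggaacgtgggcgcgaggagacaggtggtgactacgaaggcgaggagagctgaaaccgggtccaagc
Lck, second window: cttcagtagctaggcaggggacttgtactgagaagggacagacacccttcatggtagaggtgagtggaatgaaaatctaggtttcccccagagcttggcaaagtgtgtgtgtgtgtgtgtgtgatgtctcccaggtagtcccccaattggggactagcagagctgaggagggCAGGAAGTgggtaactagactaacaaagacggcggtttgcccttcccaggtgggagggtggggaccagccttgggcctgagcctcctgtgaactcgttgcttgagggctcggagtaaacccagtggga
Lef1: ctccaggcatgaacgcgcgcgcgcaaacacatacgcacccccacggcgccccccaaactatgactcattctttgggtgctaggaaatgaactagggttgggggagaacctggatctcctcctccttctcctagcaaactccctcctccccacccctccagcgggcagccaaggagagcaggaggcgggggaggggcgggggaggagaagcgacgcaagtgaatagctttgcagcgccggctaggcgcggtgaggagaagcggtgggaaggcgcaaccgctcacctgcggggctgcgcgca
Counted from the start site, CAGGAAGT lay at -18 in Cd3e, on the opposite strand, and at -30 and -78 in the Lck windows. The Lef1 window held neither sequence. Over all 33469 windows 3.05% held CAGGAAGT, against 15.4% of the members (4 of 26: Cd247, Cd3e, Il7r and Lck). The shorter GGAAGT was in 22.6% of all windows and 42.3% of the members (11 of 26). CTTTGA, the core bound by Tcf7 and Lef1, was in 16.1% of all windows and 23.1% of the members (6 of 26: Cd247, Cd27, Cd3d, Ctla4, Tcf7 and Zap70). These are matches of letters and not shown binding sites.

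Some libraries stood apart from their group. AMPH rat 17 of the 22.5 °C group was highest of the 8 AMPH rats with W identifiers (the form of identifier all saline rats at 22.5 °C carried) for 28 members, lay above every kept saline rat at 22.5 °C for 15 members and below all of them for 0. Over 10472 genes its library was closest to saline rat 17 (r = 0.983), while its closest AMPH library reached r = 0.929. It was thus nearer to the saline rats than to its labelled group. The label was kept, whether it is right was not tested, and the members' comparison at 22.5 °C is given with and without this rat. AMPH rat 21 was the single rat of its library code and correlated with no W library above 0.880, with Lef1 and Rasgrp1 both at 1.32 normalized read counts. Among the kept saline rats at 22.5 °C, rat 17 was highest for 30 members. A library code stands in each file, and what it marks is not stated in the sources used here. All 5 saline rats at 16 °C shared 1 code with 1 rat each of 3 other groups, and the saline rats at 22.5 °C shared theirs with AMPH rats of the W series alone, so for comparisons between those saline groups and most others code and treatment cannot be told apart. Total counts ran from 19055615 to 40530319 (median 27542432) over the 64 rats. Hemoglobin genes took 2.85% to 33.3% of the counts over the 17366 genes listed in all files.

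T-cell transcripts were highest in saline rats at 22.5 °C and lowest after EIH. Of the 33 members, 32 had their highest group median in saline at 22.5 °C and 29 their lowest in EIH, and 24 followed the full order saline at 22.5 °C, saline at 16 °C, AMPH at 16 °C, AMPH at 22.5 °C, EIH. How many of all genes follow this order was not counted. Its steps are medians not adjusted for library code. With code in a fit over all groups, saline at 16 °C against 22.5 °C had a member median of 0.07 (15 negative, 18 positive). Between AMPH at 22.5 °C and EIH, within shared codes, 0 members were called. Averaged over the members, the level on the log2 scale (pseudocount 1) lay below the median saline rat at 22.5 °C by a median of -0.44 in saline at 16 °C, -0.71 in AMPH at 16 °C, -1.05 in AMPH at 22.5 °C and -1.37 in EIH. The spread was wide, from -2.32 to 0.49 among AMPH rats at 22.5 °C and from -2.25 to -0.19 in EIH, against -0.17 to 0.51 in the saline rats at 22.5 °C. No member had a group median of 0. Without AMPH rats 17 and 21 the AMPH median was again -1.05 and 24 members were in the full order. Levels below are normalized read counts, that is counts divided by DESeq2 size factors over the 59 kept rats, and are compared within a gene only.

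The receptor complex set the pattern. Cd3e, the epsilon chain, stood at 2296, 1583, 1223 and 1465 in the kept saline rats at 22.5 °C and at 1037, 953, 999, 823 and 831 in those at 16 °C. It ran from 554 to 1409 (median 792) in AMPH at 16 °C, from 211 to 2203 (median 673) in AMPH at 22.5 °C and from 125 to 1259 (median 331) in EIH. The saline groups did not overlap each other for Cd3e, and EIH reached down to less than the lowest AMPH rat. The CD8 alpha chain Cd8a, of cytotoxic T cells and some NK cells, measured 2535, 1845, 1775 and 1768 in saline at 22.5 °C and 1715, 1096, 1555, 1457 and 1643 at 16 °C. It ran from 727 to 1708 (median 1015), from 517 to 2725 (median 1005) and from 429 to 1533 (median 665) in AMPH at 16 °C, AMPH at 22.5 °C and EIH, so that every EIH rat lay below every saline rat at 22.5 °C. Cd4, the coreceptor of helper cells and in the rat also carried by monocytes, was 1291, 691, 724 and 538 in saline at 22.5 °C and 393, 340, 429, 237 and 560 at 16 °C. Its medians in the other groups were close to each other, 363 in AMPH at 16 °C (174 to 544), 346 in AMPH at 22.5 °C (72.8 to 889) and 311 in EIH (77.3 to 753). Cd3d, Cd3g, Cd247 and Cd8b followed the same full order, with EIH medians of 426, 464, 461 and 216 against 1252, 1636, 1277 and 583 in saline at 22.5 °C.

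Accessory receptors followed the complex. Cd28, the main costimulatory receptor, was 330, 281, 181 and 153 in saline at 22.5 °C and 140, 93.8, 142, 87.5 and 114 at 16 °C, without overlap. It had a median of 114 in AMPH at 16 °C (81.4 to 146), 88.1 in AMPH at 22.5 °C (10.3 to 346) and 63 in EIH (16.3 to 207). Cd96, a receptor of T and NK cells for nectin-family ligands, was 514, 470, 410 and 381 in saline at 22.5 °C and 303, 236, 455, 395 and 330 at 16 °C. It ran over 222 to 391 (median 293) in AMPH at 16 °C, 21.4 to 468 (median 152) in AMPH at 22.5 °C and 39.4 to 260 (median 123) in EIH. Both hyperthermic groups therefore had Cd96 medians well below that of the AMPH rats kept at 16 °C. The adhesion receptor Cd2, the inhibitory receptors Cd5 and Cd6 and the TNF-receptor family member Cd27 kept the full order, with saline medians at 22.5 °C of 943, 914, 897 and 971 and EIH medians of 268, 292, 292 and 244. Cd7 was lowest in AMPH at 22.5 °C (median 149), next to EIH (151), against 321 in saline at 22.5 °C.

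Among the signalling genes Lck and Zap70 moved with the receptor and Prkcq did not. Lck was 3561, 2418, 2201 and 2379 in saline at 22.5 °C and 2288, 2027, 1711, 1330 and 1654 at 16 °C, and ran from 928 to 2321 (median 1356), 421 to 2938 (median 1186) and 338 to 2611 (median 836) in AMPH at 16 °C, AMPH at 22.5 °C and EIH. For Zap70 the saline rats at 22.5 °C gave 898, 545, 552 and 600 and those at 16 °C 629, 381, 433, 373 and 539. Its other medians were 447 (305 to 752), 329 (161 to 808) and 289 (131 to 841) in the same order, and all groups overlapped. Prkcq was 1291, 1135, 962 and 744 in saline at 22.5 °C and 682, 1526, 1001, 855 and 1100 at 16 °C. It ran higher elsewhere, with medians of 1610 in AMPH at 16 °C (637 to 2175), 1562 in AMPH at 22.5 °C (332 to 3538) and 1660 in EIH (936 to 4347). Txk, a Tec-family kinase, and Sh2d1a, the SAP adaptor of SLAM receptors, had medians of 827 and 375 in saline at 22.5 °C, 496 and 247 in AMPH at 16 °C, 316 and 159 in AMPH at 22.5 °C and 216 and 108 in EIH. The adaptors Lat, Skap1 and Trat1 kept the full order as well, and Rasgrp1, the Ras activator, had medians of 851 in saline at 22.5 °C, 591 in saline at 16 °C, 366 in AMPH at 16 °C, 384 in AMPH at 22.5 °C and 314 in EIH.

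Naive-cell genes also had lower medians in the AMPH and EIH groups than in saline at 22.5 °C. Against saline at 16 °C this did not hold throughout. The medians there were 160 for Lef1 and 1373 for Il7r, below the 169 and 1472 in AMPH at 16 °C. Ccr7, the lymph-node homing receptor, was 2227, 1680, 1248 and 1616 in saline at 22.5 °C and 1332, 1114, 1342, 1019 and 1101 at 16 °C, and its medians were 989 (547 to 1528), 801 (130 to 2330) and 497 (122 to 1457) in AMPH at 16 °C, AMPH at 22.5 °C and EIH. Tcf7 was 4433, 2356, 2721 and 2766 in saline at 22.5 °C and 2591, 2187, 1533, 1174 and 1954 at 16 °C, with medians of 1596 (912 to 2852), 1438 (327 to 4403) and 807 (213 to 2955) in the other groups. Both genes had some EIH rats within the range of the saline rats at 22.5 °C. Lef1 was 582, 283, 283 and 253 in saline at 22.5 °C and 219, 181, 133, 106 and 160 at 16 °C, so that the saline groups did not overlap. Its medians in AMPH at 16 °C, AMPH at 22.5 °C and EIH were 169 (105 to 325), 155 (1.32 to 531) and 120 (36.7 to 425). Il7r, the receptor for the survival cytokine IL-7, was 2269, 2126, 1792 and 2564 in saline at 22.5 °C and 1574, 1365, 2211, 1373 and 1104 at 16 °C, with medians of 1472 (847 to 2127), 1441 (135 to 2838) and 1078 (569 to 2649). From saline at 22.5 °C to EIH, Lef1 and Il7r thus showed smaller steps than Ccr7 and Tcf7.

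The lineage factors and activation genes were mixed. Bcl11b, which keeps T-cell identity, was 282, 174, 138 and 128 in saline at 22.5 °C and 163, 86.8, 65.3, 46.6 and 96.9 at 16 °C, with medians of 72.3 (40.2 to 143), 43.7 (13.2 to 227) and 47.6 (15.8 to 162) in AMPH at 16 °C, AMPH at 22.5 °C and EIH. Gata3, a factor of helper T cells, was 105, 67.5, 68 and 50.9 in saline at 22.5 °C and 49, 66.6, 50.7, 34.3 and 51.4 at 16 °C, with medians of 61.4 (23.4 to 88), 52.8 (8.57 to 118) and 67.2 (28.3 to 162) in the rest. All 5 groups overlapped for Gata3 and its medians were close to each other. Icos, a costimulatory receptor of activated cells, was 285, 279, 209 and 197 in saline at 22.5 °C and 141, 139, 231, 183 and 173 at 16 °C, with medians of 160 (127 to 221), 131 (5.29 to 322) and 90.6 (27.5 to 183). The checkpoint receptor Ctla4 had few counts, at 31.9, 47.9, 18.8 and 26 in saline at 22.5 °C, 24.5, 12.1, 38.3, 16.2 and 24.2 at 16 °C, with medians of 20.5 (12.2 to 38.3), 17.1 (5.75 to 52.4) and 15.7 (2.04 to 27.9). Satb1 and Ets1 had saline medians at 22.5 °C of 1755 and 7394 and EIH medians of 1062 and 2748.

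**Figure D1:**
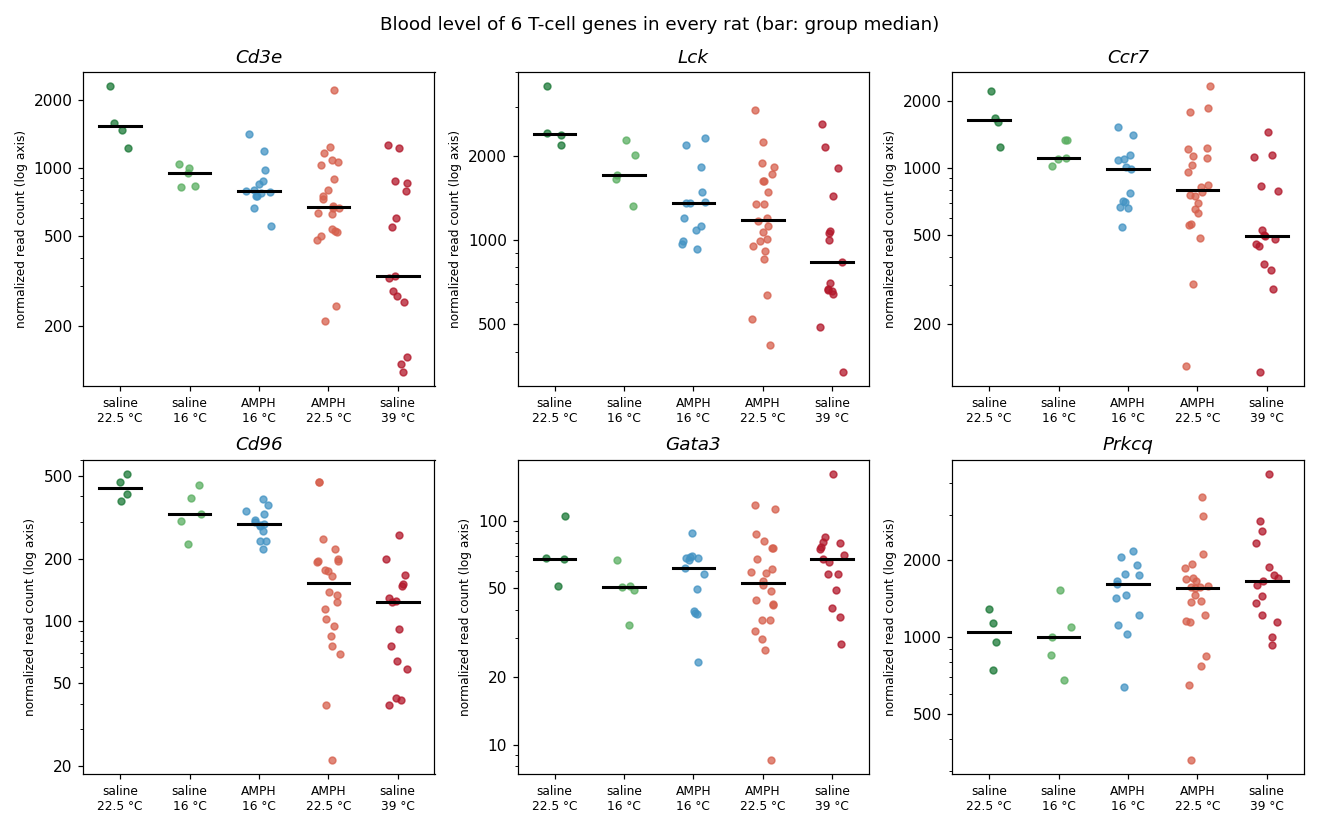
Normalized read counts (log axis) of Cd3e, Lck, Ccr7, Cd96, Gata3 and Prkcq, with each point 1 rat, the bar the group median, and groups ordered as saline at 22.5 °C, saline at 16 °C, AMPH at 16 °C, AMPH at 22.5 °C and saline at 39 °C. Cd3e medians step down from 1524 to 331, whereas those of Gata3 stay between 50.7 and 67.8 and Prkcq goes from 1048 to 1660.

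EIH was compared with each saline group by edgeR's quasi-likelihood test with Benjamini-Hochberg adjustment over all genes tested. Fold changes are given on the log2 scale with their standard error. Against saline at 22.5 °C (15 against 4 rats), 24 of the 33 members fell and 0 rose, where 9.37% of the 12986 genes tested were called lower and 7.11% higher. The median over members was -1.40, against -0.01 over all genes. All 7 receptor and coreceptor genes fell, 6 of 7 accessory receptors, 7 of 9 signalling genes, 1 of 4 naive and homing genes (Ccr7), 2 of 4 lineage factors (Bcl11b and Ets1) and 1 of 2 activation genes (Icos). Cd96 fell furthest, by 2.03 (SE 0.36, adjusted p = 0.0032), followed by Cd27 (-1.76), Skap1 (-1.73), Txk (-1.69), Cd5 (-1.69), Cd3e (-1.68), Cd2 (-1.57), Sh2d1a (-1.56), Cd3g (-1.53) and Bcl11b (-1.53). The standard errors of these were 0.32 to 0.49 and their adjusted p ran up to 0.032.

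The members not called in that comparison were Cd7, Zap70, Tcf7, Lef1, Il7r, Gata3, Ctla4, Satb1 and Prkcq. Tcf7 stood at -1.49 (SE 0.52, adjusted p = 0.054) and Zap70 at -0.94 (SE 0.36, adjusted p = 0.075), close to the threshold. Gata3 stood at -0.18 (SE 0.30) and Prkcq at 0.75 (SE 0.32, adjusted p = 0.099), and Prkcq was called higher by DESeq2 and with the rats over the Mb limit kept. The count of 24 rested on few saline rats: without saline rat 17 it was 2, without 18 it was 6, without 21 it was 13 and without 19 it was 23. Over all genes the calls lower went from 1217 in the main fit to 132, 223, 511 and 1150 in the same order. The member median in these fits was -1.20, -1.39, -1.42 and -1.44. In a fit over all groups with library code as a term 2 members were called (Cd2 and Cd4), beside 130 of 14000 genes called lower, and the median was -1.25.

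Against saline at 16 °C (15 against 5 rats), 7 members fell and 0 rose, where 6.58% of 12462 genes were called lower and 8.41% higher. The median over members was -0.78, against 0.07 over all genes. Cd96 fell by 1.61 (SE 0.34, adjusted p = 0.0031), Sh2d1a by 1.33 (SE 0.33, adjusted p = 0.01) and Trat1, the receptor-associated transmembrane adaptor, by 1.33 (SE 0.39, adjusted p = 0.025). Txk fell by 1.17 (SE 0.29), Cd2 by 1.10 (SE 0.31), Cd8a by 0.90 (SE 0.26) and Lat by 0.89 (SE 0.29), with adjusted p from 0.011 to 0.041. None of the naive genes was called. Lef1 stood at 0.07 (SE 0.46) and Il7r at -0.12 (SE 0.35), and the coreceptor Cd4 at -0.15 (SE 0.37). The other naive genes, Ccr7 and Tcf7, had medians of 497 and 807 in EIH against 1114 and 1954 in saline at 16 °C. In the fit over all groups with library code all 4 naive and homing genes were negative, with a median of -0.78 and 1 at an unadjusted p under 0.05. Prkcq was at 0.81 (SE 0.30, adjusted p = 0.069). DESeq2 called Prkcq higher here, beside 11 members lower, where it called 1058 genes lower and 1669 higher of 12409. The fit over all groups with library code gave a median of -1.06 and again called 7 members, beside 370 of 14000 genes called lower. But these 7 were Cd247, Cd5, Cd8a, Sh2d1a, Skap1, Trat1 and Txk, without Cd96 (-1.77, adjusted p = 0.051), Cd2 and Lat. Without saline rat 3 of the 16 °C group 1 member was called and without rat 4 the count was 3, beside 439 and 465 genes called lower. Both comparisons use the same EIH rats, so their values are not independent.

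Saline rats at 16 °C and at 22.5 °C were compared to show how far the control groups differ (5 against 4 rats). No member was called by edgeR, where 0.00817% of 12238 genes were called lower. An unadjusted p under 0.05 was reached by 20 members, all lower at 16 °C, against 26.1% of all genes in either direction. DESeq2 called 8 members lower, where it called 533 genes lower and 843 higher of 11488. The median over members was -0.45. Cd3e had the lowest p at -0.79 (SE 0.17, adjusted p = 0.081), followed by Cd28 at -1.0 (SE 0.24, adjusted p = 0.081), Lef1 at -1.09 (SE 0.28, adjusted p = 0.083), Cd8b at -0.54 (SE 0.14, adjusted p = 0.083) and Cd4 at -1.01 (SE 0.27, adjusted p = 0.088). All 4 naive and homing genes were among the 20. Without saline rat 19, 9 members were called, where 676 genes were called lower and 1420 higher of 12452. With library code in a fit over all groups the median was 0.07, 0 members had an unadjusted p under 0.05, and Cd8b turned to 0.22.

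**Figure D2:**
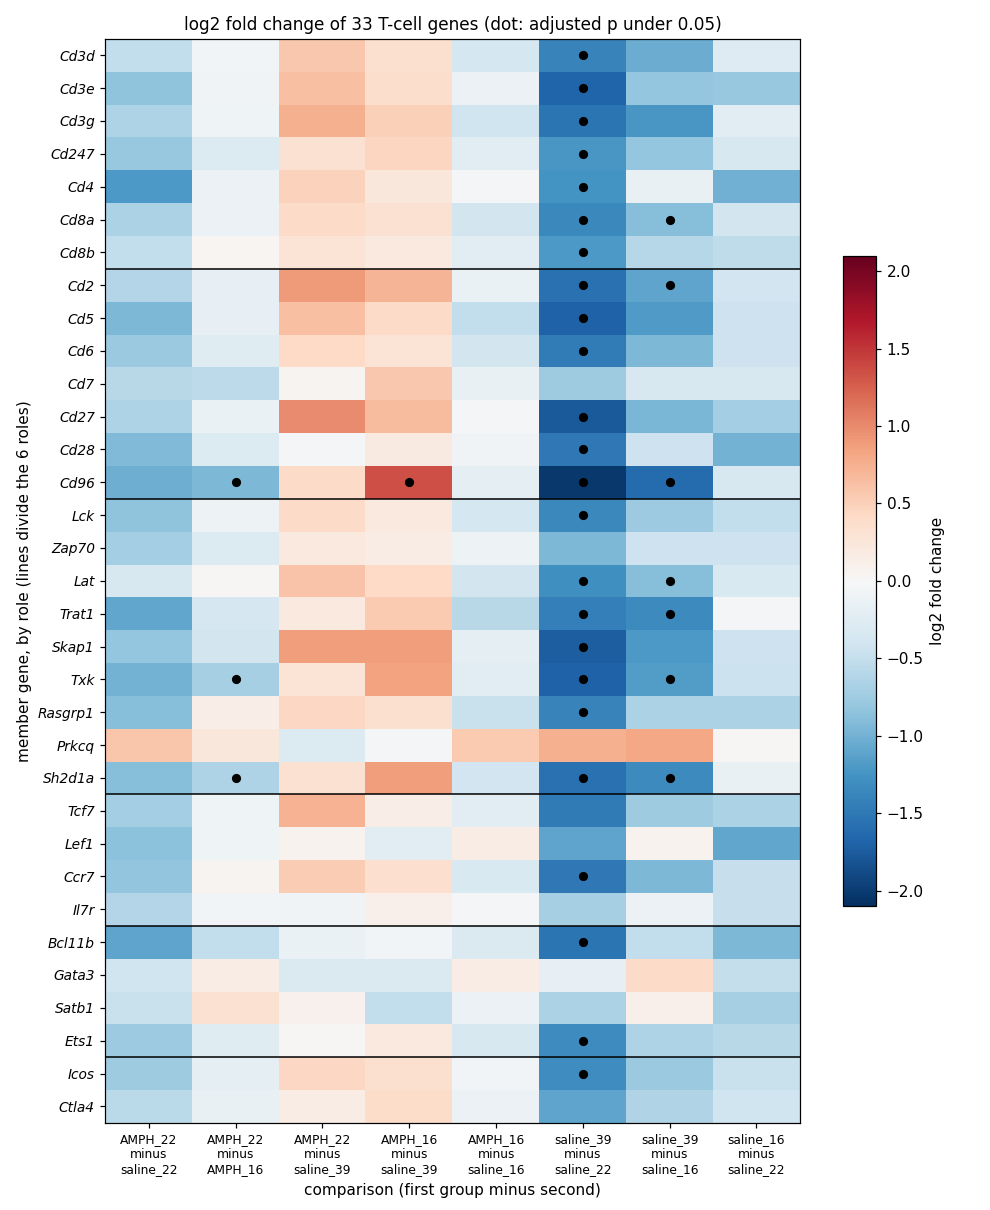
Log2 fold changes of the 33 members (rows, grouped by role) in the 8 comparisons (columns), blue for lower and red for higher in the first-named group, with a dot where the adjusted p was under 0.05. Group names give the injection and the environment in °C, 22 standing for 22.5 °C, and the EIH column (saline_39) against saline at 22.5 °C holds 24 dots, that against saline at 16 °C 7, AMPH at 22.5 °C against AMPH at 16 °C 3 and AMPH at 16 °C against EIH 1.

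AMPH at 22.5 °C was compared with saline at 22.5 °C in the W series (8 against 4 rats). The T-cell genes stood lower in most AMPH rats without any passing the adjusted test. Of the 33 members 32 had a negative fold change, with a median of -0.77, and only Prkcq was positive (0.58, SE 0.41). edgeR called 0, as it did for all 12853 genes tested (0% lower), and DESeq2 called 0 members. An unadjusted p under 0.05 was reached by 3 members against 10.4% of all genes. That count was 15 with the rats over the Mb limit kept, beside 2514 of 12550 genes tested. With a library code term it was 19 (median -0.95), beside 2340 of 12799. In the fit over all groups it was 26, beside 3256 of 14000, and Txk was 1 of 50 genes called lower. The lowest p belonged to Cd4 at -1.20 (SE 0.49, adjusted p = 0.46), Sh2d1a at -0.90 (SE 0.40, adjusted p = 0.48), Lck at -0.84 (SE 0.37, adjusted p = 0.48), Txk at -1.0 (SE 0.48, adjusted p = 0.49) and Zap70 at -0.71 (SE 0.35, adjusted p = 0.49). By role the medians were -0.66 for the receptor complex, -0.78 for accessory receptors, -0.84 for signalling and -0.77 for naive and homing genes.

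The outcome turned on a few rats. The member average relative to the median saline rat was -1.11, -0.36, 0.49, -0.57, -1.25, -0.45, -1.99 and -2.20 in AMPH rats 15 to 22, and 0.51, 0.09, -0.17 and -0.09 in saline rats 17, 18, 19 and 21. Lck was 1075, 1628, 2938, 1630, 956, 1896, 1351 and 421 in the same AMPH rats, and 7 of the 8 lay below the lowest saline rat at 2201. Apart from rat 17, each AMPH rat was below all saline rats in 25 to 32 members. How many of all genes lay below every saline rat was not counted. Most members varied together, so these counts are not separate observations. Without AMPH rat 17 the median was -1.06 and 22 members had an unadjusted p under 0.05, but 0 were called. Of all 12716 genes in that fit, 2816 had an unadjusted p under 0.05. With rats 17 and 21 both left out 5 members were called lower (Ccr7, Cd3d, Cd4, Cd7 and Cd8a), beside 331 of 12663 genes. With all 22 AMPH rats, most of them from other library codes, 6 were called lower (Cd8a, Cd96, Ets1, Lck, Sh2d1a and Txk), beside 247 of 13539 genes. Without rat 17 among them 20 members were, beside 1228 of 13450 genes. Neutrophil and platelet marker levels differed between the same rats. AMPH rat 17 lay at -1.14 on the averaged neutrophil markers and -0.05 on platelet markers relative to saline, close to saline rat 17 (-1.15 and 0.08), while the other AMPH rats lay from 1.34 to 2.43 and from 0.62 to 2.45 and saline rat 19 at 1.87 and 0.18. Their part in the result was not tested.

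**Figure D3:**
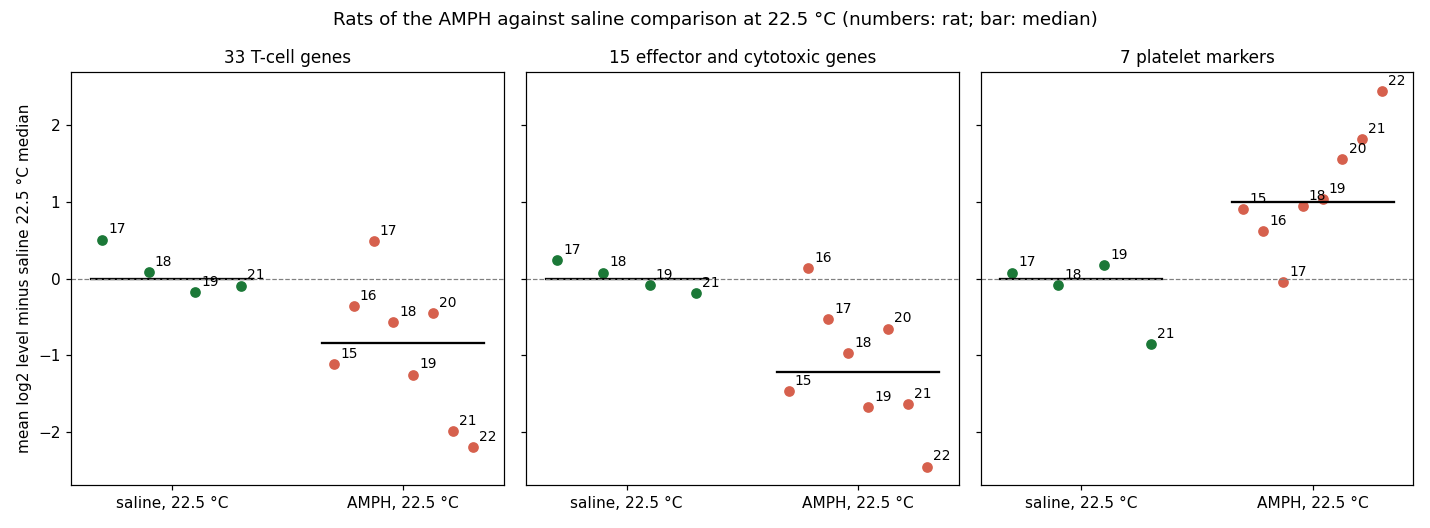
Mean log2 level relative to the median saline rat, in panels for the 33 T-cell genes, 15 effector and cytotoxic genes and 7 platelet markers, with each numbered point 1 W-series rat at 22.5 °C (4 kept saline, 8 AMPH) and the bar the group median. On the T-cell genes AMPH rat 17 averages 0.49, above all saline rats but saline rat 17 (0.51), while AMPH rats 21 and 22 average -1.99 and -2.20.

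AMPH at 16 °C was compared with saline at 16 °C (13 against 5 rats) for the effect of AMPH with the labels' normothermia. No member was called by edgeR or by DESeq2, where 0.210% of 12396 genes were called lower by edgeR, and 4 members had an unadjusted p under 0.05 against 15.5% of all genes. The median was -0.22. Those of lowest p were Prkcq at 0.55 (SE 0.22, adjusted p = 0.25), Rasgrp1 at -0.47 (SE 0.20, adjusted p = 0.26), Trat1 at -0.58 (SE 0.26, adjusted p = 0.27), Cd5 at -0.51 (SE 0.24, adjusted p = 0.3) and Lat at -0.38 (SE 0.18, adjusted p = 0.33). The naive genes had fold changes from -0.32 (Ccr7) to 0.16 (Lef1). In the fit over all groups with library code the median was -0.73, with 31 of 33 negative, 9 members at an unadjusted p under 0.05 and 0 called. The AMPH effect at 22.5 °C minus that at 16 °C, an interaction in the fit over all groups with library code, was called for 0 of 33 members by edgeR and by DESeq2 (0% of 14000 genes by edgeR), with 0 members against 7.39% of genes at an unadjusted p under 0.05. Its median was -0.16, and its standard errors of 0.44 to 0.78 leave differences of that size undetectable. Without the library code term its median was -0.68, with 32 of 33 negative, 3 members at an unadjusted p under 0.05 and 0 called. Without AMPH rat 17 its median was -0.43, with 2 members at an unadjusted p under 0.05 and 0 called.

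The AMPH groups share 5 library codes, which allowed the comparison of AMPH at 22.5 °C with AMPH at 16 °C within codes (10 against 9 rats). Cd96, Txk and Sh2d1a were called lower in the hyperthermic rats. They were 3 of 33 members, where 7.96% of 12091 genes were called lower and 7.95% higher, so the share called was near the background, and the median was -0.14 against 0.01 over all genes. Cd96 ran from 84.4 to 222 (median 156) in the 10 AMPH rats at 22.5 °C and from 222 to 391 (median 301) in the 9 at 16 °C, and fell by 0.94 (SE 0.20, adjusted p = 0.0042). Txk ran from 198 to 461 (median 309) against 293 to 769 (median 496) and fell by 0.70 (SE 0.19, adjusted p = 0.02). Sh2d1a ran from 97.9 to 247 (median 138) against 145 to 363 (median 244) and fell by 0.65 (SE 0.20, adjusted p = 0.033). Each of the 3 was lower in 5 of 5 codes, by -0.59 to -1.16 for Cd96, -0.55 to -0.94 for Txk and -0.44 to -0.76 for Sh2d1a. These codes hold the rats of the fit that called the 3, so this is not separate support. Next in p came Cd7 at -0.55 (SE 0.23, adjusted p = 0.12), also lower in 5 of 5 codes, and Satb1 at 0.32 (SE 0.16, adjusted p = 0.18). How many of all genes were lower in every code was not counted.

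Of the other members Cd3e stood at -0.07 (SE 0.19), Lck at -0.11 (SE 0.21), and Ccr7, Il7r, Tcf7 and Lef1 between -0.09 and 0.06 with standard errors of 0.21 to 0.24. For Cd3e the 10 hyperthermic rats ran from 527 to 1241 and the 9 others from 554 to 1409, nearly the same range. Cd96 was called in each alternative tried. Without code H30621, with all rats of both groups, and in the fit over all groups it was the only member called, and without each of the 4 other codes 2 members were.

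**Figure D4:**
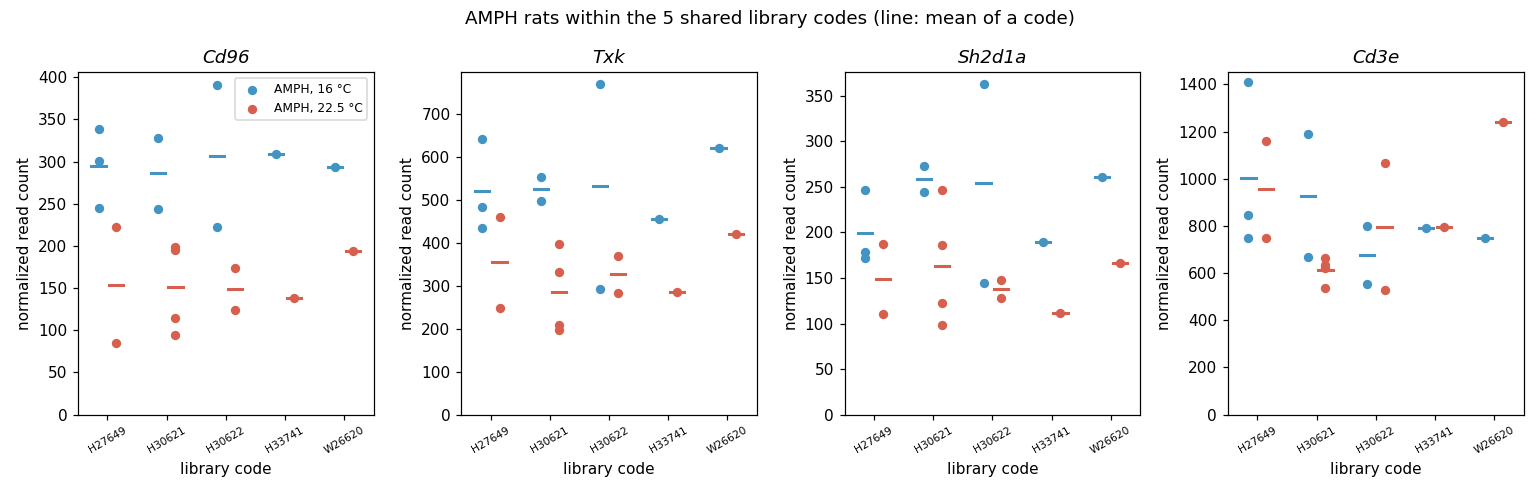
Normalized read counts of Cd96, Txk, Sh2d1a and Cd3e in AMPH rats at 16 °C (blue) and at 22.5 °C (red), each point 1 rat and each line the mean of a group within 1 of the 5 library codes that hold both. Cd96, Txk and Sh2d1a are lower at 22.5 °C in 5 of 5 codes, and the Cd3e points of the groups intermingle.

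EIH was then compared with each AMPH group within shared codes, since both hyperthermic groups could differ in the same genes. AMPH at 22.5 °C against EIH (10 against 13 rats) gave 0 members called by edgeR, where 0.116% of 12055 genes were called higher. An unadjusted p under 0.05 was reached by 4 members against 13.2% of all genes. DESeq2 called 1 member higher (Cd2), beside 153 of 11872 genes. The median was 0.40. Cd2 ran from 245 to 821 (median 465) in AMPH and from 149 to 507 (median 239) in EIH, a difference of 0.90 (SE 0.24, adjusted p = 0.14) that was positive in 7 of 7 codes. Cd27 stood at 1.00 (SE 0.33, adjusted p = 0.21), Skap1 at 0.88 (SE 0.37, adjusted p = 0.32), Lat at 0.60 (SE 0.25, adjusted p = 0.32) and Cd8a at 0.41 (SE 0.20, adjusted p = 0.38). Cd96 differed by 0.40 (SE 0.35), with 39.4 to 222 (median 135) in AMPH and 39.4 to 199 (median 123) in EIH, so the ranges nearly coincided.

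AMPH at 16 °C against EIH (10 against 7 rats) gave 1 member called higher, Cd96, where 5.59% of 12096 genes were called higher and 6.92% lower. Cd96 ran from 222 to 391 (median 297) in AMPH at 16 °C and from 39.4 to 260 (median 129) in EIH, and was higher by 1.36 (SE 0.29, adjusted p = 0.0066). It was higher in 5 of 5 codes, by 0.95 to 2.87, in the same rats that the fit used. Txk at 0.84 (SE 0.27, adjusted p = 0.053), Sh2d1a at 0.87 (SE 0.30, adjusted p = 0.068), Cd2 at 0.72 (SE 0.27, adjusted p = 0.093) and Satb1 at -0.52 (SE 0.19, adjusted p = 0.094) came next. The median was 0.34. Without code H27649 Cd96 stood at 1.49 (adjusted p = 0.067) and 0 members were called, without W26620 4 were, without H30620 2, and with all rats of both groups 10. Over all genes these fits called 182 of 12141, 644 of 12082, 465 of 12190 and 1428 of 11803 higher. The comparisons of AMPH and EIH share rats with one another and with those above.

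Most members varied together from rat to rat. Over the 59 kept rats, taking each rat's deviation from its group mean on the log2 scale, 29 members had r of at least 0.6 with the average of the others, the highest for Cd5 (0.96), Cd3e (0.91) and Cd6 (0.91). Under 0.5 were Cd7 (0.45), Gata3 (0.37), Ctla4 (0.27) and Prkcq (0.16). Prkcq, a kinase that platelets also use, and Gata3 went along with the averaged platelet markers (r = 0.63 and 0.48). Cd96, Txk and Sh2d1a had the highest r with the averaged NK markers (0.78, 0.77 and 0.82), followed by Cd8a (0.66), Cd247 (0.60) and Trat1 (0.59). The naive genes Il7r, Tcf7, Ccr7 and Lef1 had 0.55, 0.46, 0.43 and 0.34. These are descriptions of rats that share libraries and size factors.

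Effector and NK genes were counted in the same comparisons. In AMPH at 22.5 °C against AMPH at 16 °C the list of effector and cytotoxic genes had 4 of 14 lower and 0 higher, with a median of -0.84. They were the chemokine Ccl5 at -1.44 (SE 0.29, adjusted p = 0.0031), granzyme K (Gzmk) at -1.90 (SE 0.49), the inhibitory lectin receptor Klrg1 at -1.80 (SE 0.44) and the effector regulator Prdm1 at -0.67 (SE 0.21). NK markers had 2 of 6 lower, Klrb1a at -1.31 (SE 0.38) and the NK receptor Ncr1 at -1.71 (SE 0.28), and a median of -0.99. The NK list summed to 796 to 5143 normalized read counts in AMPH at 22.5 °C (median 1834), 2293 to 5501 in AMPH at 16 °C (median 3899) and 1148 to 4332 in EIH (median 1951), over 7 genes of which 1 had a median of 0 in each of these groups. Its part in the lower Cd96, Txk and Sh2d1a was not tested. B-cell markers had 0 of 8 called and a median of 0.33 in the same comparison, and monocyte markers had 3 of 7 higher (Cd14, Cd68 and Csf1r).

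In that comparison between the AMPH groups, 7.96% of all genes were called lower and 7.95% higher. Of 24 further genes of receptor signalling 1 was lower and 3 were higher, with a median of 0.08. The member median was -0.14, so there was little shift for them to follow. The counts given here are small and were not tested against these shares. The kinase Fyn (0.62, SE 0.13) and the protease Malt1 (0.44, SE 0.14), which acts in NF-kappa B activation, were among those that rose, and the adaptor Bcl10 fell by 0.58 (SE 0.13). Of 10 further naive and quiescence genes 1 fell, Klf2 (-0.77, SE 0.20), which drives exit from lymph nodes, and of 6 regulatory genes 1 fell, the checkpoint receptor Lag3 (-0.82, SE 0.23).

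In EIH against saline at 22.5 °C 7 of the 24 further signalling genes fell, 1 rose and the median was -0.21. Sit1 (-1.34, SE 0.40), Ptpn22 (-1.21, SE 0.22), Sla2 (-1.20, SE 0.37) and Ubash3a (-1.17, SE 0.35) were among those that fell, and Cd226 (1.88, SE 0.46), a receptor of NK cells, T cells and platelets, rose. The effector list had 9 of 14 lower (median -1.05), NK markers 6 of 6 (median -1.20) and the regulatory list 3 of 8, among them Foxp3, the factor of regulatory T cells (-1.47, SE 0.47). S1pr1, the receptor for exit into blood, fell by 1.07 (SE 0.23). B-cell markers had 1 of 8 lower (Fcer2), and platelet markers had 6 of 7 higher, with the chemokine Ppbp at 3.05 (SE 0.45). Platelet markers summed to 17049 to 46052 normalized read counts in saline at 22.5 °C and 49449 to 254969 in EIH, without overlap. Their part in the members' result was not tested.

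Against saline at 16 °C the effector list had 5 of 14 lower in EIH, NK markers 4 of 6 and the further signalling genes 2 lower and 3 higher of 24. Platelet markers had 2 of 7 higher (Gp5 and Ppbp), monocyte markers 1 of 7 higher (Cd14) and neutrophil markers 3 of 9 lower (Camp, S100a8 and S100a9). Neutrophil markers summed to 371039 to 841408 normalized read counts in saline at 16 °C and 63160 to 361851 in EIH, without overlap, and platelet markers to 48549 to 96126 and 49449 to 254969. Their part in the members' result was not tested. In AMPH at 16 °C against saline at 16 °C 0 of 14 effector genes and 0 of 6 NK markers were called by edgeR, with 1 and 0 at an unadjusted p under 0.05, while 1 of 8 B-cell markers fell (Pax5) and the B-cell median was -0.79. In AMPH at 16 °C against EIH the effector list had 3 of 14 higher (Ccl5, Gzmk and Klrg1) and NK markers 2 of 6 higher (Klrb1a and Ncr1). In AMPH at 22.5 °C against EIH neither list had a called gene by edgeR, with medians of -0.43 and -0.23 and 3 and 0 genes at an unadjusted p under 0.05. In AMPH against saline at 22.5 °C 9 of 14 effector genes and 2 of 6 NK markers had an unadjusted p under 0.05, all lower, and 0 were called by edgeR.

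**Figure D5:**
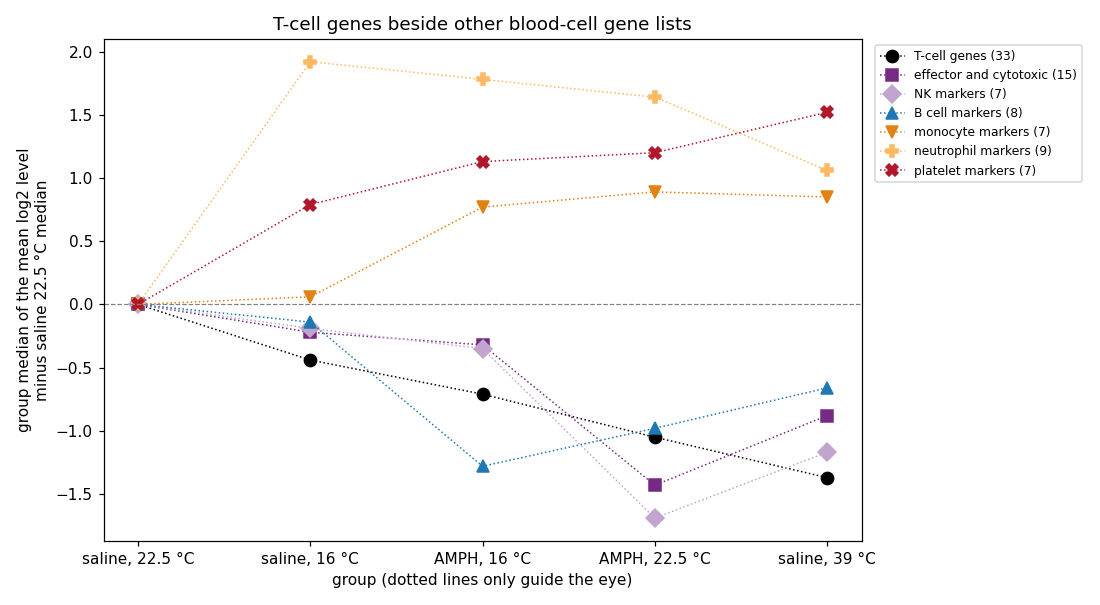
Group median of the mean log2 level of each gene list (y axis, relative to the median of saline at 22.5 °C) in the 5 groups (x axis), with dotted lines as a guide to the eye. All members run -0.44, -0.71, -1.05 and -1.37 in saline at 16 °C, AMPH at 16 °C, AMPH at 22.5 °C and EIH, while the effector and cytotoxic list runs -0.22, -0.32, -1.43 and -0.88, and the NK list -0.19, -0.35, -1.69 and -1.17.

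The order of the groups thus differed between lists. The members and the naive genes were lowest in EIH (naive and homing medians of -0.53, -0.64, -0.81 and -1.46 in saline at 16 °C, AMPH at 16 °C, AMPH at 22.5 °C and EIH), whereas effector and NK genes were lowest in AMPH at 22.5 °C and B-cell markers in AMPH at 16 °C (-1.28). Monocyte markers were at 0.06 in saline at 16 °C and from 0.77 to 0.89 in the AMPH and EIH groups. Neutrophil markers lay from 1.06 to 1.92 above saline at 22.5 °C in all other groups, though saline rats at 22.5 °C themselves ran from -1.15 to 1.87. These orders are medians of groups that overlap.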

How the data were processed

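TruSeq stranded libraries were made from whole-blood RNA of individual rats after globin depletion. The authors called bases with CASAVA 1.8.2, aligned reads with Bowtie 0.12.9 to rat transcripts (rn5) and deposited RSEM 1.2.0 expected counts per gene, not normalized, which were rounded here to whole numbers. The files hold 6 gene lists over 14 library codes (26405 genes in any file, 17366 in all), and each fit used genes listed in all of its files. By the study's criterion, 5 of 64 rats with more than 5000 Mb counts, a sign of cardiac muscle, were left out, so 59 were kept.

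Groups were compared with the quasi-likelihood test of edgeR 4.0.16 after TMM normalization, run in R 4.3.3. A gene was tested if 10 or more counts were found in a number of rats equal to the size of the smaller group, and an adjusted p (Benjamini-Hochberg) under 0.05 was called. AMPH at 22.5 °C against AMPH at 16 °C, and each of these against saline at 39 °C, used rats of shared library codes with code as a term. AMPH against saline at 22.5 °C used rats with W identifiers, and the rest used all kept rats. DESeq2 1.42.0 gave normalized counts and an alternative test. Python 3.11.15, pandas 2.3.3, numpy 2.4.6 and matplotlib 3.10.9 served for summaries.

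The members, roles and lists were chosen with earlier results of these data known. By a fixed rule, levels are given by group for a set list of members, and fold changes for called members, or for the 10 of largest change, with those of lowest p up to 5 where fewer were called. Lists of other genes were counted by the same test, and some of their genes are not reported here. Alternatives covered normalization, test, filters, samples, library code, the replicate block and leaving out rats or codes. Replicate numbers were not taken as pairs, because the labels give no shared animal or day and not every same-numbered pair correlated. No rats of a group were duplicates (lowest chi-square per gene 52.4). Nothing states more than separate rats, and depth (19055615 to 40530319 counts) leaves variation between rats, not counting error, as the limit except for low genes such as Ctla4. The fitting code was tested on simulated data.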

Additional observations from a re-analysis of the deposited data

Results flagged for a closer look

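In 17 of 99 tests (33 members in each of 3 sets of 4 to 8 rats) the highest rat lay farther from the others than Dixon's 95% limit allows. Chance gives about 1 in 20 in independent tests. Most members varied together in the same rats, so the 17 are not separate observations and cannot be set against that share. All 17 concerned a rat numbered 17. In saline at 22.5 °C rat 17 was set apart for Cd8a (2535 normalized read counts), Cd27 (1789), Lck (3561), Zap70 (898), Lef1 (582) and Satb1 (2924). Among the 8 AMPH rats with W identifiers rat 17 was set apart for Cd3e (2203), Cd4 (889), Cd8a (2725), Cd8b (888), Cd6 (1415), Cd27 (1641), Cd28 (346), Lef1 (531), Bcl11b (227), Skap1 (1110) and Rasgrp1 (1362). The libraries of the saline and AMPH rats numbered 17 carry the same library code and were each other's closest in the W series (r = 0.983).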

How the results depend on the processing

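Of 120 alternative counts of called members 92 equalled the main count or stayed within 1.5 times of it. In most of these 92 both counts were 0, some in fits that called no gene at all, so the figure does not measure stability. Of 464 fold changes of named members 400 kept their direction and side of the threshold, 36 became called and 27 were lost. The last 1 turned, Cd8b in saline at 16 °C against 22.5 °C (0.22 in the fit over all groups with library code). For that fit the counts called lower were 1 in AMPH against saline at 22.5 °C, 1 in AMPH at 22.5 °C against 16 °C and 2 in saline at 39 °C against 22.5 °C, and 5 were called higher in AMPH at 16 °C against saline at 39 °C. Over all 14000 genes the calls in the same order were 50, 657 and 130 lower and 992 higher. In AMPH against saline at 22.5 °C all AMPH rats gave 6, and 2 alternatives chosen after seeing the data gave 5 (without rats 17 and 21) and 20 (all but 17). Over all genes tested these fits called 247, 331 and 1228 lower. In AMPH at 22.5 °C against 16 °C all rats gave 1 and leaving out code H30621 1, beside 880 and 633 genes called lower. In AMPH at 16 °C against saline at 39 °C the counts were 2 with RLE normalization, 5 with DESeq2, 2 without hemoglobin genes, 10 with all rats, 0 without H27649, 2 without H30620 and 4 without W26620. Over all genes these fits called 686, 1019, 691, 1428, 182, 465 and 644 higher. DESeq2 gave 1 in AMPH at 22.5 °C against saline at 39 °C, 11 (and Prkcq higher) in saline at 39 °C against 16 °C and 8 in saline at 16 °C against 22.5 °C. Over all genes it called 153 higher, 1058 lower and 533 lower in the same order. Leaving out single rats gave 2 to 23 in saline at 39 °C against 22.5 °C, 1 to 6 in saline at 39 °C against 16 °C and 0 to 9 in saline at 16 °C against 22.5 °C. Over all genes tested these fits called 132 to 1150, 439 to 523 and 0 to 676 lower. The median in saline at 39 °C against 16 °C was -1.95 within the shared code (1 against 5 rats). The replicate block, for rats that share a number but are not known to be paired, gave 7 lower in AMPH at 22.5 °C against 16 °C, 2 higher in AMPH at 22.5 °C against saline at 39 °C, 9 higher in AMPH at 16 °C against saline at 39 °C, 5 lower in saline at 39 °C against 16 °C, and 0 lower (10 at an unadjusted p under 0.05 at 22.5 °C) in both AMPH comparisons with saline of the same temperature, though in that at 16 °C Prkcq was called higher. Over all genes the replicate block called 1146 lower, 211 higher, 1562 higher and 405 lower in the first 4 of these comparisons. Where numbers differ, the cause was not tested. Depth limits Ctla4, at 2.04 to 52.4 normalized read counts.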
